A study of Mus musculus with 6 samples.

Results

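The ATPase ring of the 19S regulatory particle is built from the products of 6 genes, Psmc1 to Psmc6, and one of them, Psmc4, which encodes Rpt3, was the gene deleted in these mice. The genes were taken by symbol through the platform annotation, with every probe of each gene. They had 7 probes, 2 for Psmc4 and 1 for each of the others, among 34967 transcript probes, of which 22150 could be named, for 18562 genes. Single-color (Cy5) CodeLink arrays of the mouse genome had been run on muscle RNA of 6 female mice 6 weeks of age, 3 of them Rpt3−/− and 3 Rpt3+/+, with an array for each animal. The labels call the groups Rpt3 null and control and give both the strain mlc1f-Cre/ Rpt3-floxed, whereas the paper describes controls with both Psmc4 alleles intact and the same Cre transgene (Mlc1f-Cre/Rpt3+/+) and Rpt3−/− mice with both alleles floxed (Mlc1f-Cre/Rpt3 f/f). Cre was driven by the promoter of myosin light chain 1 fast, which acts in skeletal muscle from the embryo on and in fast-twitch fibers of the adult. By the paper, excision by this Cre is incomplete, and which cells kept Psmc4 was not measured on these arrays. The labels name the tibialis anterior and the paper's text on the arrays names the gastrocnemius, both of them muscles in which fast-twitch fibers predominate.

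The ring sits at the base of the 19S particle, on the α ring of the 20S core. Its subunits are AAA ATPases, which use ATP to pull on ubiquitylated proteins, unfold them and thread them into the core, and C-terminal tails of Rpt2, Rpt3 and Rpt5 dock into pockets of the α ring and open its gate. The subunits assemble as pairs, Rpt1 with Rpt2, Rpt6 with Rpt3 and Rpt4 with Rpt5, with the help of dedicated chaperones. When proteasome activity falls in mammalian cells, the transcription factor NRF1 is known to raise the genes of the subunits together through antioxidant response elements.

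Since members of the ring moved together and Psmc4 apart from them, the sequence before the RefSeq start site is shown for Psmc4, for Psmc5 and Psmc6, which had the largest measured rises, and for Psmc1, which did not pass the test. Each run is the 250 bases before the start, 5′ to 3′ on the strand of the gene, from RefSeq (GRCm38.p6), in a table of promoters that matched 5 of the 6 genes. Psmc3 was not matched. Capitals mark matches, on either strand, to the core of the antioxidant response element (TGACNNNGC), the CCAAT box (CCAAT), the GC box (GGGCGG) or an ETS site (ACTTCCG), and no match overlapped another. The Psmc4 sequence lies at chr7:28050093-28050342 (minus strand), Psmc5 at chr11:106255935-106256184, Psmc6 at chr14:45329574-45329823 and Psmc1 at chr12:100109952-100110201 (plus strand).
Psmc4: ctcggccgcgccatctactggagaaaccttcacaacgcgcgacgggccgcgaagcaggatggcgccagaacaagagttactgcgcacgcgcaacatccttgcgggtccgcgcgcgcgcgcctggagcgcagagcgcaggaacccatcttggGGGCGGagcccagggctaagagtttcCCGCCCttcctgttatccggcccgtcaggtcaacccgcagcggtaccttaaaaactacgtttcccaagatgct
Psmc5: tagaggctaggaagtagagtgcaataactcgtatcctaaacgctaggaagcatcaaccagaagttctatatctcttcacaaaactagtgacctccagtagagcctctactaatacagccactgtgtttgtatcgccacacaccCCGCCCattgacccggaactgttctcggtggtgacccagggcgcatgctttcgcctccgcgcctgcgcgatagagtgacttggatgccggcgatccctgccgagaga
Psmc6: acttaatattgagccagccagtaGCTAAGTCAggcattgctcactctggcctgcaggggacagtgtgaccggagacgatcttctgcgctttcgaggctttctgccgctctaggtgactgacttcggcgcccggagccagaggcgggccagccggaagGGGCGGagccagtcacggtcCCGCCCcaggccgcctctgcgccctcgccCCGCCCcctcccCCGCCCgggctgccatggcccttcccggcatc
Psmc1: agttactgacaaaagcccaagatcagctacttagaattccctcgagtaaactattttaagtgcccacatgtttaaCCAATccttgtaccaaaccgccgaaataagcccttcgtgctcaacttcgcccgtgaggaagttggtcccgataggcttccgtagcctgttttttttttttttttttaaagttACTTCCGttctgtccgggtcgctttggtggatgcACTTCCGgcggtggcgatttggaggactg
Psmc4 had 2 GC boxes, beginning 99 and 73 bases before the start, and Psmc5 had 1, at 107 bases. Psmc6 had 4 GC boxes, between 93 and 32 bases before the start, and the one match to the antioxidant response element among the 5 genes, at 227 bases. Psmc1 had a CCAAT box at 175 bases and ETS sites at 63 and 29 bases, and Psmc2, not printed, had a CCAAT box at 28 bases and an ETS site at 85 bases. Of 32851 promoters of the same length, 10.2% held the antioxidant response element core, 33.8% the CCAAT box, 32.7% the GC box and 4.92% the ETS site. These shares were not matched for base composition. G and C made up 63.6% of the bases for Psmc4, 53.2% for Psmc5, 68.0% for Psmc6, 46.4% for Psmc1 and 74.4% for Psmc2. The median over the promoters was 52.4%. Psmc4, the gene deleted in these mice, and Psmc5 each matched the GC box alone of these motifs. A match is a string of letters and not a site shown to be bound, and binding was not measured.

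The share of transcript probes above background ranged from 69.2% to 72.7% on the Rpt3−/− arrays and from 57.0% to 74.5% on the Rpt3+/+ arrays, of which the second was the dimmest. All 6 ring genes had a probe above background on every array, with background-subtracted intensities 7.23 to 85.6 times the local background. Values below are log2 intensities after background correction and quantile normalization, which gives all arrays the same distribution, and a log2 difference of 1 is a doubling. Genes were compared with limma, a linear model fitted over the 14731 genes detected above background by 3 or more of the 6 arrays, and a gene with an adjusted p (Benjamini-Hochberg over those genes) under 0.05 was called higher or lower. Of all tested genes 12.7% were called higher and 6.56% lower. With arrays centred on their median in place of quantile normalization, these shares were 17.4% and 4.07%.

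Psmc4, by its brighter probe, was 2.24-fold lower in Rpt3−/− mice. Its log2 intensities were 10.01, 9.78 and 9.85 in the Rpt3−/− mice, against 11.16, 10.91 and 11.06 in the controls. The groups were far apart and differed little within themselves, with means of 9.88 ± 0.12 (SD, n = 3) and 11.04 ± 0.12 (SD, n = 3). The log2 fold change was -1.17 (standard error 0.13, 95% interval -1.46 to -0.87, adjusted p = 0.00031 from limma), the 88th lowest of the 14731 genes. The difference was already present before normalization, at background-subtracted intensities of 1135, 915 and 1001 against 2368, 1310 and 1808. The groups overlapped on neither scale, where 15.6% of all tested genes lay lower without overlap after normalization and 3.46% before it.
Psmc4 signal thus remained well above background in the muscle of Rpt3−/− mice, at background-subtracted intensities 13.7 times the local background or more. In RNA from a whole muscle, fewer cells that express a gene and less RNA per cell cannot be told apart. For the cell type markers that follow, the shares over all tested genes were 12.7% called higher and 6.56% called lower. Macrophage markers rose on the same arrays in 7 of 8 tested genes, among them C1qa, C1qb and C1qc, subunits of the complement component C1q, and Lyz2, lysozyme, with log2 fold changes of 2.13, 1.92, 1.79 and 1.56. Their summed intensity ran from 5663 to 8835 on the Rpt3−/− arrays and from 2058 to 2238 on the Rpt3+/+ arrays, and the lowest value of any tested marker of these cell types was a log2 intensity of 6.73. Cd68, Adgre1, Csf1r and Itgam, defining macrophage genes, were not tested. Slow-fiber genes rose in 5 of 7, led by Tnni1, Tnnc1 and Tnnt1, the slow troponins, at 1.36, 1.33 and 1.23. Myl2 rose by 0.74 and Atp2a2, the slow calcium pump, by 0.59. Myh7 at 0.37 and Myl3 at -0.25 did not pass. The summed intensity of the slow-fiber genes was 22015 to 22816 against 14315 to 17511. Of 10 fast-fiber genes 2 fell, Myl1, whose promoter drives Cre in these mice, at -0.85 and Actn3, a Z-disc actinin, at -0.64. Myh1, the IIx myosin heavy chain, rose by 0.70. The fast-fiber sums were 183544 to 186009 against 199393 to 211384. Above 0 were 4 of the 10 after quantile normalization and 1 after median centring, with list medians of -0.21 and -0.37. Quantile normalization gives very bright probes the same few values, such as 14.74 in Tnnc2, Mylpf and Atp2a1, which can narrow their changes. Of 6 fibroblast genes Pdgfra at 0.78 and Col3a1 at 0.55 rose, and of 3 adipocyte genes Cfd at 1.57 and Adipoq at 1.21. The sums were 26266 to 28000 against 17995 to 21165 for fibroblasts and 7607 to 8627 against 5164 to 6084 for adipocytes. None of 5 endothelial and of 3 satellite cell and myoblast genes passed. Their sums were 1214 to 1337 against 1112 to 1759 and 1253 to 1706 against 914 to 1206. All 3 satellite cell and myoblast genes were above 0, with a median of 0.44. Of the 5 endothelial genes 1 was above 0, and their median was -0.05. Pax7, a defining satellite cell gene, Cdh5 of endothelium and Plin1 of adipocytes were not tested. Under Actb centring 70.1% of all tested genes were called lower, and the median of all tested genes was -0.72. There 7 of the 8 macrophage, 5 of the 7 slow-fiber and 2 of the 3 adipocyte genes were above 0. Of the 6 fibroblast genes 1 was above 0, and of the 10 fast-fiber genes 1 was. Relative to the median of all tested genes, the list medians were 1.54 for macrophage, 0.97 for slow-fiber, 0.58 for fibroblast, 1.34 for adipocyte and -0.42 for fast-fiber genes. The part of these cells in the remaining Psmc4 signal was not tested.
The dimmer probe of Psmc4 is annotated through an expressed sequence tag and was near background. Its background-subtracted intensities were 0.276 to 1.01 times the local background. It was above background on 4 of the 6 arrays, and missed it on the third Rpt3−/− and the second Rpt3+/+ array. Its log2 intensities were 6.69, 6.66 and 6.15 in the Rpt3−/− mice, against 6.68, 6.73 and 6.77 in the controls, so that the groups overlapped. The log2 fold change was -0.23 (95% interval -0.58 to 0.13, adjusted p = 0.399 from limma over 24882 probes), where 9.51% of the probes were called higher and 5.31% lower. It was -0.59 with the background subtracted and -0.60 in the value table, neither past the threshold. Under Actb centring, where 70.1% of all tested genes were lower, it was -0.997 and passed (adjusted p = 0.00139 from limma). Without the third Rpt3−/− array, 1 of the arrays on which the probe was not above background, it was -0.05. The sources used here do not say whether either probe lies inside the floxed region.

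**Figure D1:**
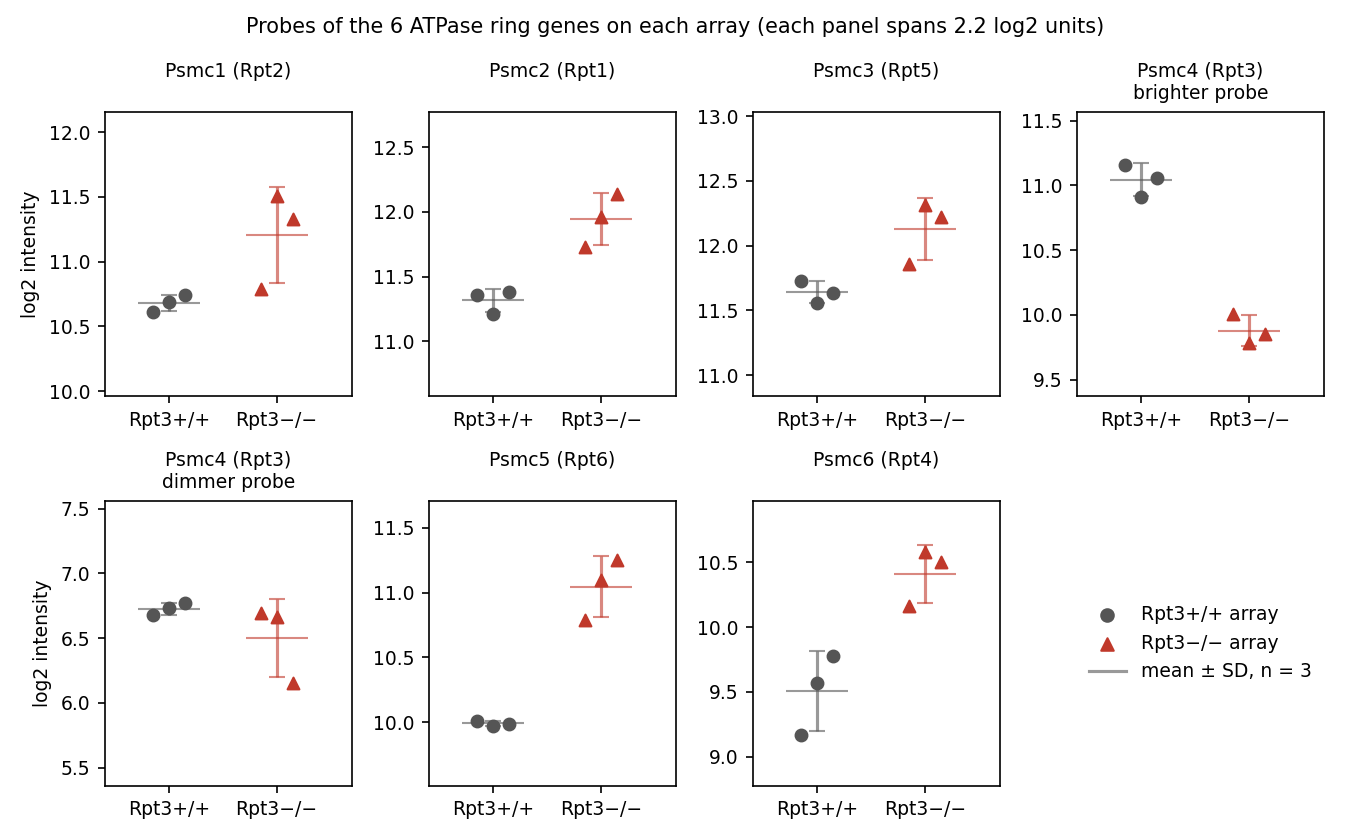
Log2 intensity of the 7 probes of the ring genes on each array, with Rpt3+/+ arrays as gray circles, Rpt3−/− arrays as red triangles, and the mean ± SD (n = 3). Psmc4 by its brighter probe lies lower in Rpt3−/− mice (9.78 to 10.01 against 10.91 to 11.16), and the other 5 genes lie higher, without overlap between the groups.

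The other 5 ring genes were higher on every Rpt3−/− array than on any Rpt3+/+ array. Of these 4 passed the test, at 1.40-fold to 2.08-fold, where 12.7% of all tested genes were called higher and 21.2% lay higher without overlap. By the unpaired test that the methods name, after adjustment, Psmc4 was lower and Psmc5 alone of the other 5 higher, where 6.38% of all tested genes were called higher and 2.9% lower. Before normalization the 5 genes also lay higher without overlap, as did 28.7% of all tested genes. Their log2 fold changes had a median of 0.63, against -0.01 over all tested genes.
Psmc5 encodes Rpt6, the subunit that pairs with Rpt3 in the ring, and had the largest rise. Its log2 intensities were 10.79, 11.10 and 11.25 in the Rpt3−/− mice, against 10.01, 9.97 and 9.99 in the controls. The Rpt3+/+ arrays were nearly level, at 9.99 ± 0.02 (SD, n = 3), and the Rpt3−/− arrays were spread over a wider range, at 11.05 ± 0.23 (SD, n = 3). It rose by 1.05 on the log2 scale (standard error 0.14, 95% interval 0.73 to 1.38, adjusted p = 0.00088 from limma), a 2.08-fold rise and the 380th highest of all tested genes.
Psmc6 encodes Rpt4, and its log2 intensities were 10.16, 10.58 and 10.50 in the Rpt3−/− mice, against 9.17, 9.57 and 9.78 in the controls. It varied most of the ring genes among Rpt3+/+ mice (SD 0.31, n = 3), with the first array lowest. Its rise was 0.90 on the log2 scale (standard error 0.18, 95% interval 0.50 to 1.31, adjusted p = 0.00665 from limma), a 1.87-fold rise.
Psmc2 encodes Rpt1, and its log2 intensities were 11.73, 11.96 and 12.14 in the Rpt3−/− mice, against 11.36, 11.21 and 11.38 in the controls. This was a log2 fold change of 0.63 (standard error 0.14, 95% interval 0.31 to 0.94, adjusted p = 0.0115 from limma), a 1.55-fold rise, and it did not pass without the third Rpt3−/− array (adjusted p = 0.0576 from limma).
Psmc3 encodes Rpt5, the partner of Rpt4, and its log2 intensities were 11.86, 12.31 and 12.22 in the Rpt3−/− mice, against 11.73, 11.56 and 11.63 in the controls. The first Rpt3−/− array lay just above the highest Rpt3+/+ array. The log2 fold change was 0.49 (standard error 0.15, 95% interval 0.16 to 0.82, adjusted p = 0.0448 from limma), a 1.40-fold rise. This call rested on several arrays, and the adjusted p from limma was 0.155 without the second and 0.156 without the third Rpt3−/− array, and 0.0657 without the second and 0.149 without the third Rpt3+/+ array.
Psmc1 encodes Rpt2, the partner of Rpt1, and its log2 intensities were 10.79, 11.51 and 11.33 in the Rpt3−/− mice, against 10.61, 10.69 and 10.74 in the controls. The second and the third Rpt3−/− arrays stood well above the controls, whereas the first was next to them, and the spread among Rpt3−/− mice was the widest of the ring (SD 0.37, n = 3, against 0.06 in Rpt3+/+ mice). The log2 fold change of 0.53 (standard error 0.18, 95% interval 0.13 to 0.93) missed the threshold (adjusted p = 0.0683 from limma). Without the first Rpt3−/− array it was 0.74 and passed (adjusted p = 0.0151 from limma).
In order of the change the genes stood as Psmc5, Psmc6, Psmc2, Psmc1 and Psmc3. The 95% intervals of all 5 overlapped, and each neighbour in that order lay within the interval of the next. The genes were measured on the same arrays, and there the rise of Psmc5 exceeded that of Psmc3 by 0.58, 0.44 and 0.68 and that of Psmc2 by 0.38, 0.46 and 0.43 on the Rpt3−/− arrays, and that of Psmc1 by 0.69, 0.28 and 0.61. On the controls these differences stayed between -0.07 and 0.08, without overlap. Psmc5 and Psmc6 were closer, at 0.15, 0.04 and 0.26 against -0.27 to 0.36 in the controls. Whether the rises differed was not tested.

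**Figure D2:**
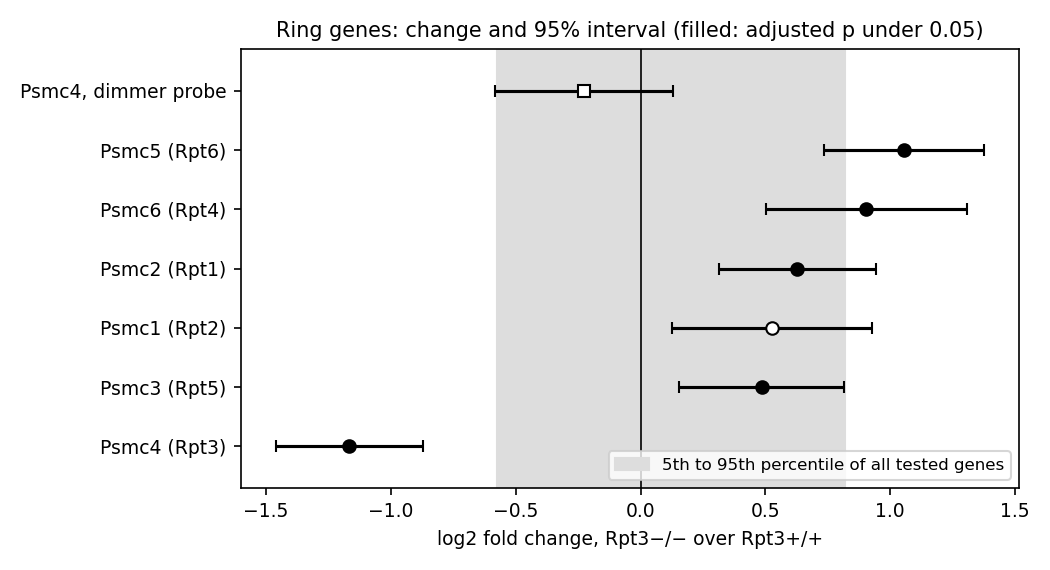
Log2 fold change of the ring genes in Rpt3−/− over Rpt3+/+ mice (horizontal axis) with the 95% interval from limma, filled where the adjusted p was under 0.05, and the 5th to 95th percentile of all tested genes in gray (-0.57 to 0.82). Psmc4 stands at -1.17 by its brighter probe, below the gray band. Psmc5 at 1.05 and Psmc6 at 0.90 stand above the band, and Psmc2 at 0.63, Psmc1 at 0.53 and Psmc3 at 0.49 within it.

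The balance of the ring transcripts was then followed within each array, where a shift of the whole array cancels. Relative to the Rpt3+/+ mean of each gene, Psmc4 stood at -1.04, -1.27 and -1.20 on the Rpt3−/− arrays, and the mean of the other 5 genes at 0.44, 0.86 and 0.86. Psmc4 was therefore lower than the mean of the other 5 by a log2 difference of -1.47, -2.13 and -2.05, with a mean of -1.89 ± 0.36 (SD, n = 3). On the Rpt3+/+ arrays this difference was 0.17, -0.11 and -0.06, an SD of 0.15 about 0 (n = 3). Set against one gene at a time, the mean difference ran from -1.65 with Psmc3 to -2.22 with Psmc5, the partner of Rpt3.
Centring subtracts 1 constant from all genes of an array, so this difference is by construction the same with arrays centred on their median or on Actb, which encodes β-actin (-1.90). In the value table the authors deposited it was -2.02. The change of each gene by itself does depend on the centring. The mean change of the other 5 was 0.72 after quantile normalization, 0.99 after median centring, 0.22 after Actb centring and 0.79 in the value table. Actb centring also moved the median of all tested genes from -0.01 to -0.72. Relative to that median, the median of the other 5 stood at 0.64, 0.88, 0.88 and 0.78 under the same 4 scalings. All 5 stayed above 0 on each of these scalings, though under Actb centring Psmc5 alone passed (log2 fold change 0.54, adjusted p = 0.0382 from limma), where 2.23% of all tested genes were called higher and 70.1% lower. Psmc4 was lower in each, from -0.91 after median centring to -1.68 after Actb centring.

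**Figure D3:**
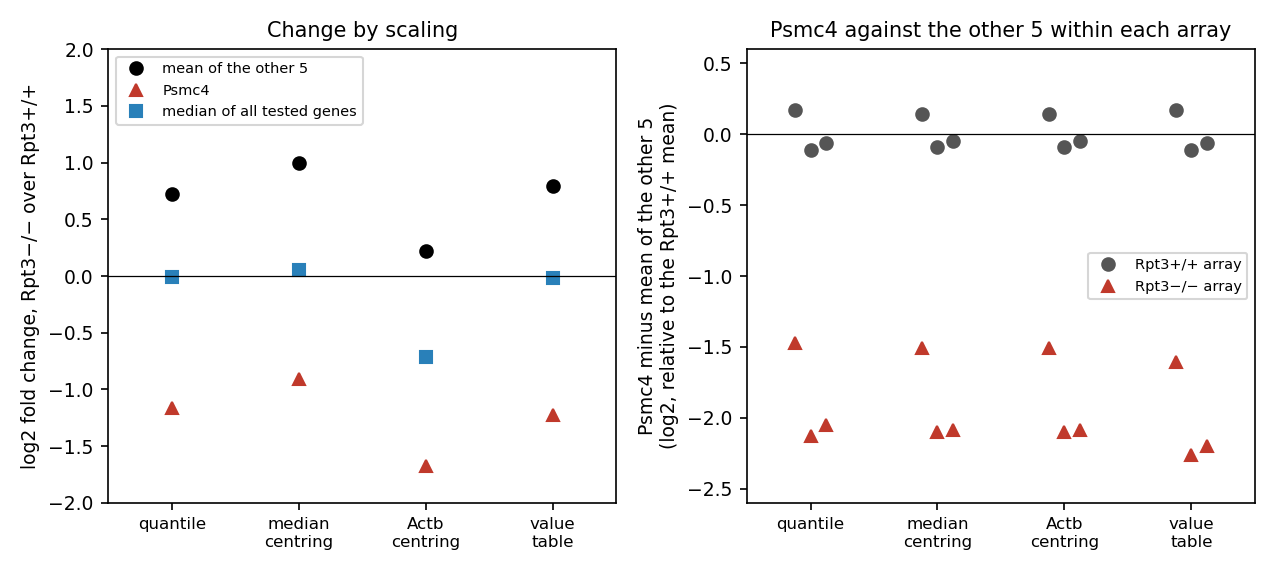
Left, log2 fold change of Psmc4, of the mean of the other 5 ring genes and of the median of all tested genes under 4 scalings. Right, Psmc4 minus the mean of the other 5 within each array, relative to the Rpt3+/+ mean; the Rpt3−/− arrays (red triangles) stay between -1.47 and -2.26 and the Rpt3+/+ arrays (gray circles) between -0.11 and 0.17 under all 4.

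Among the Rpt3−/− mice the first stood apart. It had the most Psmc4 signal, except under Actb centring, and after quantile normalization the least of each of the other 5 ring genes. Its difference between Psmc4 and the other 5 was the smallest of its group, at -1.47 after quantile normalization, -1.51 after centring and -1.61 in the value table. Of 26 other tested subunit genes of the 19S particle and the 20S core, 22 were also lowest on that array. This array was the lowest of its group for 35.2% of all tested genes and for 28.0% of the genes called higher. The count depends on the scaling, since after median centring the array was lowest for 4 of the 5 ring genes and for 12 of the 26 others, against 30.6% of all tested genes. Low values there were not particular to proteasome subunits. After quantile normalization the array was lowest for 16 of 25 tested AAA ATPases outside the proteasome and 6 of 7 NRF1 control genes. The same held for 3 of 3 chaperones of the ring, 5 of 6 fibroblast and 4 of 7 slow-fiber genes. It was lowest for 4 of 10 fast-fiber and 2 of 5 endothelial genes. None of the 8 macrophage, 3 adipocyte or 3 satellite cell and myoblast genes was lowest there.

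**Figure D4:**
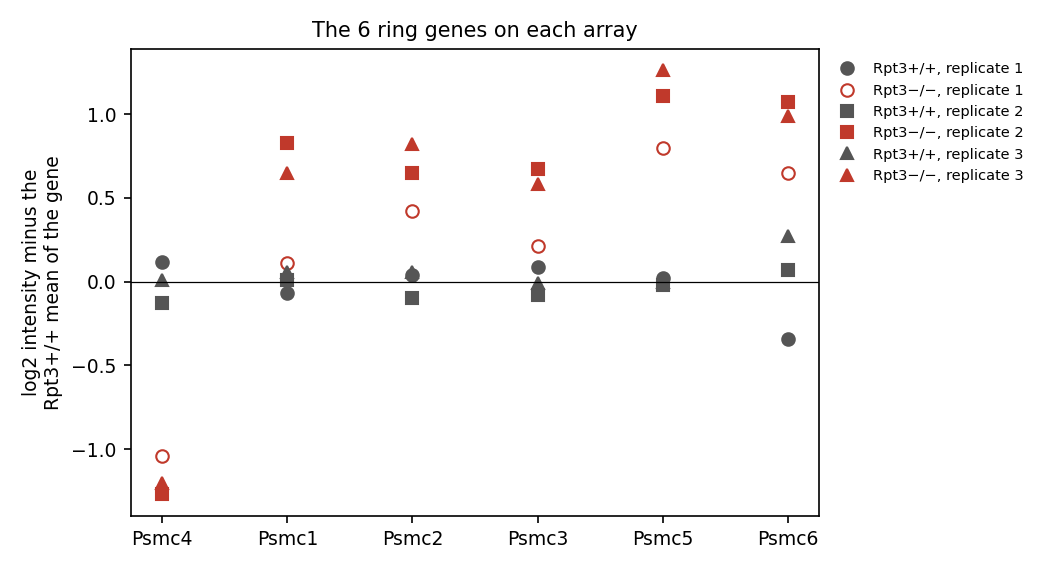
Log2 intensity of each ring gene on each array, minus the Rpt3+/+ mean of that gene. On the first Rpt3−/− array (open red circles) Psmc4 is at -1.04, the highest of its group, and the other 5 genes are at 0.11 to 0.80, the lowest of theirs.

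The rest of the proteasome was measured to see where the ring stood in it. Of 26 tested subunit genes outside the ring 23 rose and none fell, with a median log2 fold change of 0.76, against a median of 0.63 for the 5 ring genes and 12.7% of all tested genes called higher. No test of a difference between these groups was made. In the base, where the ring sits, all 4 genes other than the ATPases rose. Psmd4, a ubiquitin receptor, was at 1.27, Adrm1, a ubiquitin receptor also called Rpn13, at 0.71, Psmd1, a scaffold subunit, at 0.70 and Psmd2, the other scaffold subunit, at 0.59.
In the lid, which removes ubiquitin, 7 of 9 genes rose, with Psmd6 at 0.53 and Psmd12 at 0.37 short of the threshold. The number was 4 when the second or the third Rpt3−/− mouse, or the third control, was left out. Psmd3 and Psmd11 led with 1.21 and 1.17, followed by Psmd13 with 0.98 and Psmd14, the deubiquitylating enzyme, with 0.67. In the α ring of the 20S core, on which the ATPases dock, 6 of 7 genes rose, with Psma3 at 0.24 short of the threshold. The number was 3 when the third Rpt3−/− mouse or the third control was left out. Psma7 and Psma5 were at 1.60 and 1.42, Psma2 at 1.02 and Psma4 at 0.77. In the β ring all 6 tested genes rose, with Psmb4 at 1.36, Psmb5, the chymotrypsin-like subunit, at 1.31, Psmb2, which has no catalytic site, at 1.15 and Psmb6, the caspase-like subunit, at 1.01. Under Actb centring 22 of the 26 were above 0, and all 26 were under the other 3 scalings.
Of the chaperones that build the ring, Psmd10, known as gankyrin and the binding partner of Rpt3, rose by 0.82 (standard error 0.14, adjusted p = 0.00258 from limma). Its mean log2 intensity stood at 8.85 ± 0.11 (SD, n = 3) against 8.03 ± 0.16 in the controls (SD, n = 3). Psmd5, which binds Rpt1, rose by 1.14 (adjusted p = 0.00171 from limma), and Psmd9, which binds Rpt5, was at 0.29 and did not pass (adjusted p = 0.145 from limma). Under Actb centring neither Psmd10, at 0.16, nor Psmd5, at 0.50, passed, and Psmd9 was at -0.42. Paaf1, the chaperone of Rpt6, was not tested here.
Among genes known to act in the NRF1 control of proteasome genes, 3 of 7 tested genes rose and none fell, where 12.7% of all tested genes rose and 6.56% fell. Mafg and Mafk, small Maf proteins that pair with NRF1 on DNA, were at 0.70 and 0.63. Sel1l, an adaptor of endoplasmic reticulum-associated degradation, was at 0.63 and just passed (adjusted p = 0.0497 from limma). The number that rose was 2 when any Rpt3−/− mouse, or the first or the third control, was left out. Keap1, Ddi1, Ddi2 and Maff, also on this list, were not tested. Nfe2l1, which encodes NRF1 itself, was at -0.17 (adjusted p = 0.584 from limma) and Ngly1, which removes its glycans, at -0.02 (adjusted p = 0.952 from limma). Under Actb centring all 7 were below 0, with a median 0.18 above that of all tested genes, which was then -0.72.

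**Figure D5:**
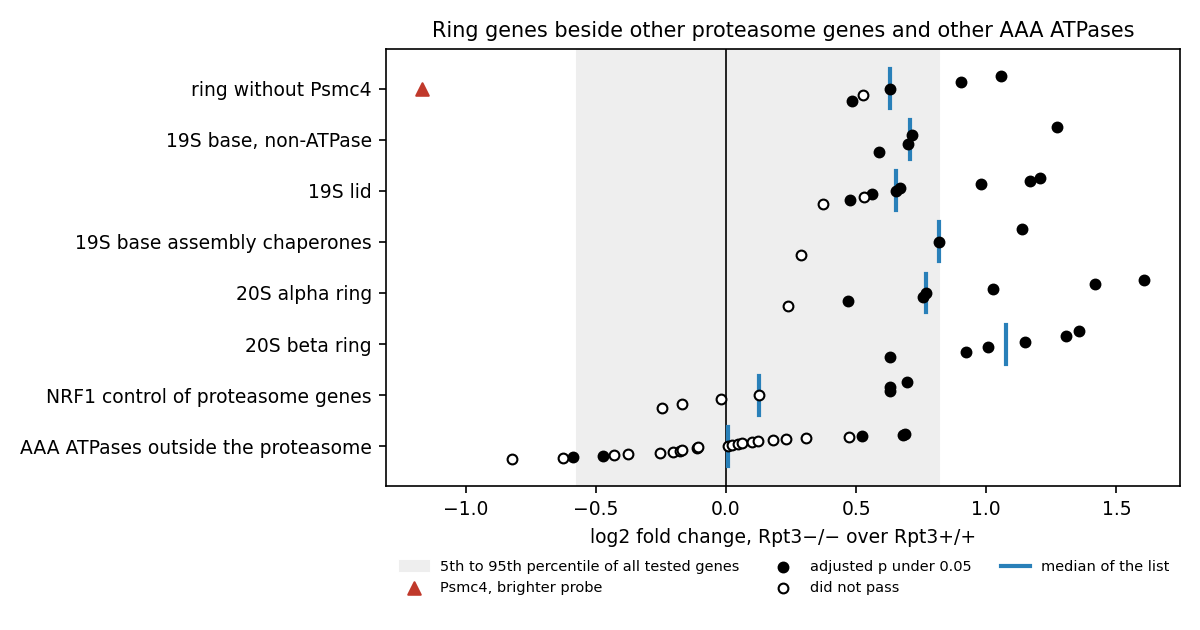
Log2 fold change of each tested gene of the ring, of the other proteasome parts, of NRF1 control and of other AAA ATPases, filled where the adjusted p was under 0.05, with the median of each list as a blue line. Psmc4 (red triangle) is at -1.17, the medians of the proteasome parts lie between 0.63 and 1.08, and the other AAA ATPases center on 0.01.

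The ATPases of the ring belong to the AAA family. Of 25 tested AAA and related AAA+ ATPases outside the proteasome 3 rose, 2 fell and 20 did not pass, with a median log2 fold change of 0.01. These are about the shares over all tested genes, of which 12.7% rose and 6.56% fell. Atad3a, of mitochondria, was at 0.69, and Vcp, the segregase that delivers ubiquitylated proteins to the proteasome, at 0.68. Katnal1, a katanin-like ATPase, was at 0.52. Spg7, a subunit of the mitochondrial m-AAA protease, was at -0.59 and Fign, a microtubule-severing ATPase, at -0.47. The Fign probe was dim, at log2 intensities of 6.28 to 7.0, and above background on 4 of the 6 arrays. Without the first Rpt3+/+ array 6 of them fell, without the third Rpt3+/+ array none did, and without any one of the Rpt3−/− arrays 1 did. Under Actb centring 18 fell and none rose, where 70.1% of all tested genes fell and 2.23% rose.

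The genes whose profile over the 6 arrays was most like that of Psmc4 were found by the root mean square difference of log2 intensities, each gene centred on its own mean, among 14679 tested genes with a value on every array. The closest were Dlx5, with a difference of 0.042 log2 units, Cib2 with 0.0587, Ndufaf5 with 0.0952, Mok with 0.0993 and Cyp27a1 with 0.105. Their log2 fold changes were near that of Psmc4, with -1.21 for Dlx5, -1.15 for Cib2 and -1.10 for Cyp27a1. For the mean profile of the other 5 ring genes the closest was Psmd1, the scaffold subunit of the base, with 0.0347. It was followed by Cops5, the catalytic subunit of the COP9 signalosome, a relative of the 19S lid, with 0.0486, Fkbpl with 0.055, Gstm4, a glutathione transferase, with 0.0586 and Adrm1, of the base, with 0.0645. Of the 26 subunit genes outside the ring, 9 were among the 100 closest of 14675 genes. These profiles share the contrast between the groups, which fixes much of the likeness, and it is given as a description.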

How the data were processed

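RNA from the muscle of 3 Rpt3−/− mice and 3 Rpt3+/+ mice had been hybridized to CodeLink arrays, 1 array per slide and mouse. The authors deposited scanner reports with the spot intensity, local background intensity and quality flag from CodeLink Expression Analysis 5.0.0.31312, without normalization between arrays. They also deposited a value table of linear intensities that share 1 distribution (median 89.0) and follow their own array (correlation of log2 intensities at least 0.997), with a floor of 0.001. How it was made is not stated in these sources. Python 3.11.15 read the files. Masked and contaminated spots were left out, the background was corrected by normexp (offset 50), control spots were removed, and arrays were quantile normalized. The log2 values were then compared by limma 3.58.1 (lmFit, eBayes) in R 4.3.3. The brightest tested probe stood for a gene. The fit was tested on simulated data. The number of arrays limits the precision.
The ring genes and the gene lists were chosen with earlier results of these data known, and the motifs with the sequences in view. Named genes were every member, up to 4 called genes of each list with the largest change (Fign, Atp2a2 and members short of the threshold were added after their values were seen), and the 5 genes most like Psmc4 or the other members. Of the transcript probes 21615 were named by the platform annotation and 535 through RefSeq. Alternatives were other background corrections (among them an offset of 16), scalings, filters, probe rules and variance models, the unpaired test that the methods name, a block for the replicate number, and each array left out in turn. With 1 array per slide, no slide effect could be fitted. A planned comparison between the 2 probes of Psmc4 is not given, since the dimmer lay near background.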

Additional observations from a re-analysis of the deposited data

How the results depend on the processing

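The fall of Psmc4 by its brighter probe passed under all 19 alternatives (log2 fold change -1.68 to -0.70, adjusted p at most 0.0158), the smallest being the mean of its 2 probes. It lay between -1.23 and -1.11 with each array left out, and was -1.17 with the replicate block. The count of other ring genes called higher was 4 in the reported setting. It was 1 under Actb centring and 1 by the unpaired test of the methods after adjustment, against 5 by median centring, and it ran from 2 to 5 with each array left out, the 2 being without the third Rpt3−/− array. Psmc5 passed under all 19, Psmc6 and Psmc2 under 17 and 16, Psmc3 under 10 and Psmc1 under 2. The dimmer Psmc4 probe passed in 1 of 16, under Actb centring. No direction reversed for a ring gene. By the unpaired test 940 genes were higher and 427 lower after adjustment (6.38% and 2.9% of all tested), against 1870 and 967 by limma, and 2502 and 1636, with 4 of the ring genes, before adjustment. With each array left out the counts ran from 1089 to 2332 and from 389 to 1432. The call counts of the lid, α ring, base (without the ring) and chaperone genes were 4, 3, 2 and 1 by the unpaired test and 2, 3, 1 and 0 under Actb centring, where 0 NRF1 control genes rose and 3 fell. The cause of these differences was not tested.
Same-numbered arrays did not deviate together (correlations 0.126, -0.438 and 0.0976), so the numbers were not taken as pairs. With the replicate block 1722 genes were higher and 873 lower, and of the ring calls Psmc3 did not pass (adjusted p = 0.0685).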
